A study of Rattus norvegicus with 9 samples.

Results

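The genes that build, load and transcribe the major histocompatibility complex (MHC) molecules were followed through chronic ototoxicity in the rat vestibular epithelium. The members were the gene symbols beginning with RT1-, the prefix of the rat MHC, together with B2m, Tap1, Tap2, Tapbp, Tapbpl, Nlrc5, Ciita, Cd74, Psmb8, Psmb9, Psmb10, Psme1, Psme2 and Erap1, each with at least 10 estimated counts over the 9 libraries. This rule kept 42 of the 32883 genes in the count table. Of the 42, 20 were RT1 class I genes, 8 were RT1 class II genes (symbols RT1-B and RT1-D) and 14 were the other genes. Another 3 RT1 symbols, RT1-M5, RT1-Db2 and RT1-Ha, had fewer than 10 counts in all and were not members. The filter on low counts passed 39 members to the test, and RT1-M2, RT1-M4 and RT1-DOb did not pass it.

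RNA came from male Long-Evans rats, with the 6 cristae and 2 utricles of 1 rat pooled into each library. The IDPN-3wk and IDPN-7wk groups drank water with IDPN (3,3'-iminodipropionitrile, a compound toxic to hair cells, HCs) at 20 mM for 3 or 7 weeks, and the Control group drank plain water. Each group had 3 rats, the single Control group included rats killed at each time point, and the age of these rats was not given in the sources used here. All 9 libraries carried the same labelled batch. The p-values below measure the spread between libraries, 1 for each rat. That spread includes any unlabelled split between libraries, such as that in detected genes described below. The sample titles also carry a code of unstated meaning that all 3 Control libraries share and no treated library carries, so this code and the Control group cannot be told apart.

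MHC class I molecules pair an RT1 heavy chain with beta-2-microglobulin and show peptides from the cytosol to CD8 T cells. The peptides are cut by the proteasome, whose catalytic subunits can be exchanged for the interferon-inducible immunoproteasome subunits, pumped into the endoplasmic reticulum by the Tap1-Tap2 transporter and loaded with the help of tapasin. MHC class II molecules pair an alpha and a beta RT1 chain, travel with the invariant chain Cd74 and show peptides from endosomes to CD4 T cells. Nearly all nucleated cells make class I, whereas class II is mostly made by macrophages, dendritic cells and B cells. Nlrc5 and Ciita are the transactivators of the class I and class II genes.

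The libraries held between 31100118 and 46018385 counts. A count of 3, the limit of what a library could show, corresponded to 0.0611 to 0.101 CPM (counts per 1000000 scaled library counts), and this limit covers counting error only. Control 3, IDPN-3wk 1 and IDPN-3wk 2 had fewer detected genes (15387 to 15562) than the other 6 libraries (16857 to 17437), so RT1-A2, Cd74, the called members and the class I sum are also given within these sets. Of 7 HC markers, 3 were lower in IDPN-3wk and 5 in IDPN-7wk than in Control, and their summed level was 2040 to 2519 CPM in Control, 935 to 1243 CPM in the IDPN-3wk libraries and 980 to 1091 CPM in IDPN-7wk. Ptprq and Otof were the most abundant of these markers in every library, so the sum mainly followed them. Myo7a was not called at 3 or 7 weeks (log2 fold changes -0.39 and -0.33, edgeR adjusted p = 0.128 and 0.137). In bulk RNA, a change in the number of cells of one type and a change in RNA per cell cannot be told apart. A gene was called different when its adjusted p in edgeR's quasi-likelihood test over 15517 genes was below 0.05 and its fold change was above 1.5.

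Class I transcripts of the RT1-A and RT1-CE sets rose after 7 weeks of IDPN. Of the 39 members tested, 15 were higher and 0 lower in IDPN-7wk than in Control, against 2.00% of all genes tested called higher and 3.13% called lower. DESeq2 called 18 higher and 0 lower, and at an unadjusted p below 0.05 edgeR had 21 higher and 0 lower. The 15 were 10 class I genes (RT1-A1, RT1-A2, RT1-CE1, RT1-CE4, RT1-CE5, RT1-CE7, RT1-CE10, RT1-N3, RT1-T24-1 and RT1-T24-3) and 5 other genes (B2m, Tap1, Tapbp, Psmb8 and Psmb9). None of the 7 class II genes tested was called by edgeR at 7 weeks, with 1 at an unadjusted p below 0.05 and 1 called by DESeq2. In IDPN-3wk, edgeR called 0 members, with 13 at an unadjusted p below 0.05 (9 higher and 4 lower) and 3 called by DESeq2 (RT1-N2 and RT1-DOa higher, Cd74 lower), while 0.438% of all genes tested were called higher and 1.21% lower.

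**Figure D1:**
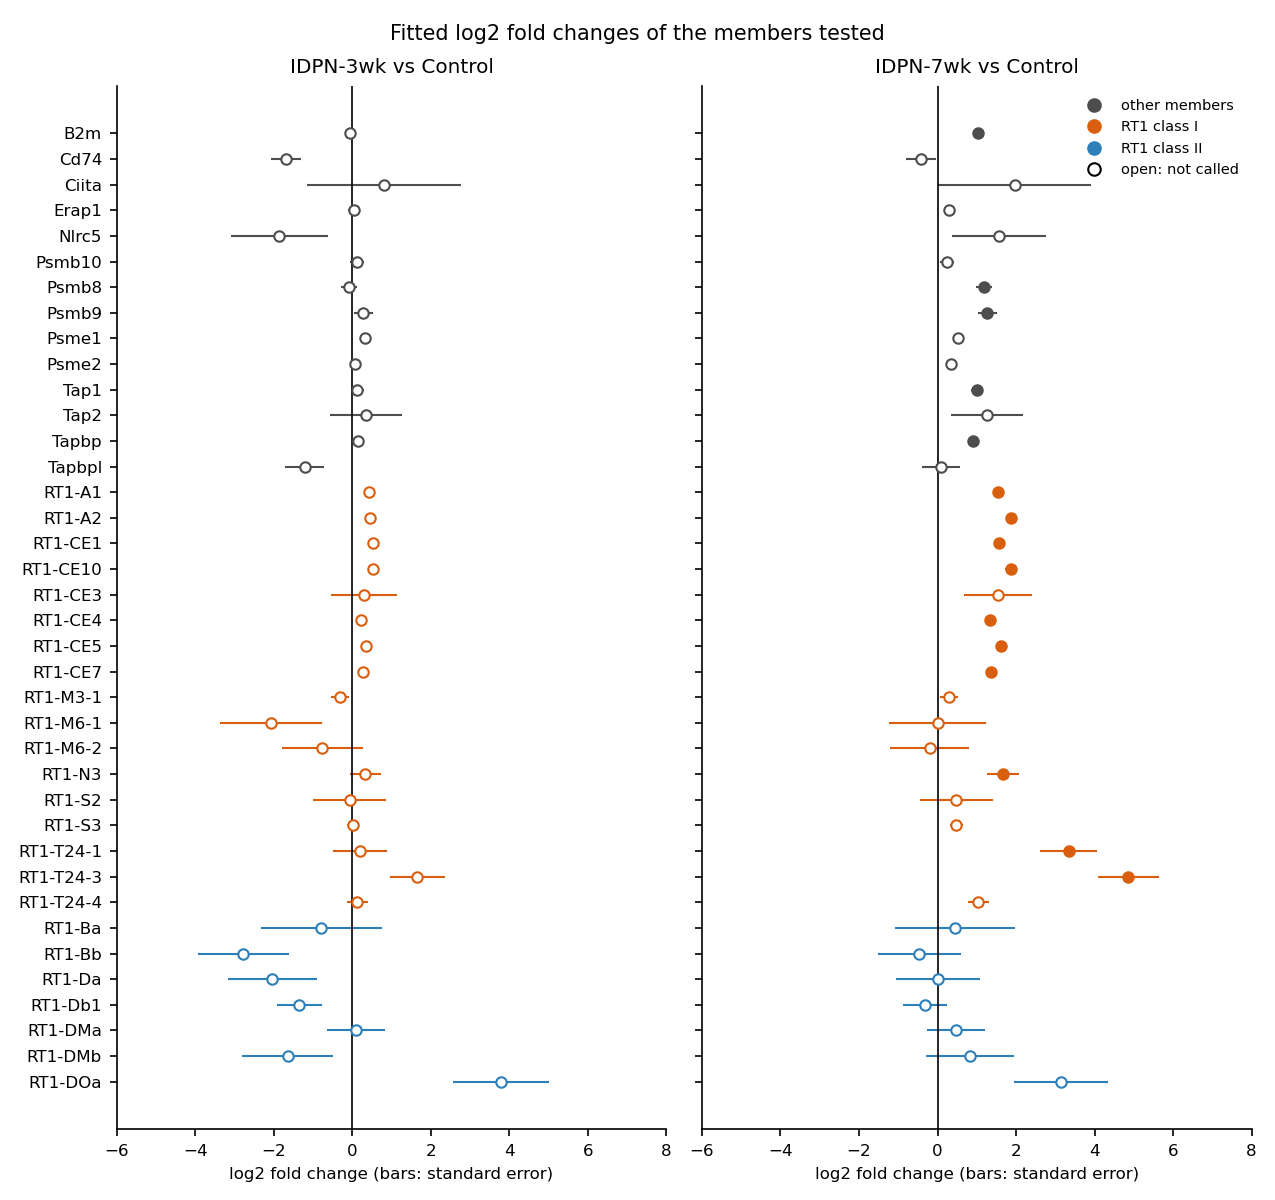
Fitted log2 fold changes against Control with their standard errors for 38 members, in IDPN-3wk (left) and IDPN-7wk (right), grey for the other members, orange for RT1 class I and blue for RT1 class II. Filled points were called, all of them at 7 weeks and all above 0, and the open class II points lie on both sides of 0 with wide bars. RT1-N2, at 0 counts in every Control library, is left out.

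RT1-A2, a classical heavy chain that presents peptides to CD8 T cells, had the smallest p of all members at 7 weeks. Its level was 187, 186 and 211 CPM in the Control libraries, 271, 272 and 256 CPM in the IDPN-3wk libraries and 802, 713 and 614 CPM in IDPN-7wk. The 3 groups did not overlap and were ordered Control, IDPN-3wk, IDPN-7wk. Its log2 fold change was 1.87 ± 0.11 (SE) at 7 weeks (adjusted p = 2.58e-05) and 0.45 ± 0.11 at 3 weeks (adjusted p = 0.0651, not called). Among the 3 libraries with fewer detected genes the 3-week difference was 0.36 on the log2(CPM + 2) scale, and within the other libraries it was 0.45 at 3 weeks and 1.91 at 7 weeks.

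RT1-A1, the second RT1-A symbol, followed the same order. It stood at 72.7, 73.6 and 75.9 CPM in Control, at 89.7, 114 and 93.5 CPM in the IDPN-3wk libraries and at 241, 218 and 184 CPM in IDPN-7wk, with no overlap between groups. The log2 fold change was 1.53 ± 0.13 at 7 weeks (adjusted p = 0.000153) and 0.42 ± 0.13 at 3 weeks (adjusted p = 0.136).

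The RT1-CE genes, further class I heavy chain genes of the RT1 complex, stood in the same order. RT1-CE10 was at 33.5, 31.7 and 41.2 CPM in Control, at 48.0, 58.8 and 48.0 CPM in the IDPN-3wk libraries and at 130, 144 and 113 CPM in IDPN-7wk (log2 fold change at 7 weeks 1.86 ± 0.15, adjusted p = 0.000143). RT1-CE5 was at 63.0, 69.1 and 74.3 CPM in Control, at 81.9, 94.1 and 87.4 CPM in the IDPN-3wk libraries and at 242, 219 and 173 CPM in IDPN-7wk (1.62 ± 0.13, adjusted p = 0.000152). In both genes every IDPN-3wk library lay above every Control library and below every IDPN-7wk library. RT1-CE7 varied little within groups, at 80.0, 80.1 and 79.6 CPM in Control, 95.2, 97.9 and 96.4 CPM in the IDPN-3wk libraries and 196, 218 and 200 CPM in IDPN-7wk (1.36 ± 0.08, adjusted p = 2.93e-05). RT1-CE4 was at 50.3, 52.4 and 55.8 CPM, then at 56.7, 67.2 and 60.2 CPM and at 149, 136 and 118 CPM (1.35 ± 0.12, adjusted p = 0.000212). The groups did not overlap in either gene. RT1-CE1 was at 24.4, 22.3 and 23.6 CPM, then at 35.8, 33.9 and 32.6 CPM and at 82.8, 68.6 and 58.0 CPM (1.57 ± 0.15, adjusted p = 0.000298). The remaining member of this set, RT1-CE3, stayed at or below 1.14 CPM in every library, and its log2 fold change of 1.54 ± 0.85 at 7 weeks was not called (adjusted p = 0.376).

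At 3 weeks, the 7 RT1-A and RT1-CE genes called at 7 weeks had log2 fold changes of 0.22 (RT1-CE4) to 0.54 (RT1-CE1 and RT1-CE10) and adjusted p between 0.0651 and 0.417 in edgeR. In DESeq2 the adjusted p at 3 weeks was 0.00283 to 0.0348 for RT1-A2, RT1-CE7, RT1-CE1, RT1-CE10 and RT1-A1. It was 0.120 for RT1-CE5 and 0.342 for RT1-CE4. All 7 were short of the fold threshold in both tests. The IDPN-3wk libraries of these 7 genes all lay above their Control libraries. Over all members tested, 9 of 39 lay above Control without overlap at 3 weeks, where 8.78% of all genes tested did, and 23 of 39 at 7 weeks, where 17.2% did. In the other direction, 5 of 39 lay below Control without overlap at 3 weeks, near the 10.9% of all genes tested, and 0 at 7 weeks, where 17.1% did. The 9 and the 23 both include RT1-DOa, which passed the filter on low counts through the treated libraries alone. The smallest p that an exact permutation of 3 against 3 libraries can give is 0.1, so a gap between groups was read only as a description. Within the 6 libraries with more detected genes, the 15 called members differed between IDPN-7wk and Control by 0.85 (Tapbp) to 3.51 (RT1-T24-3) on the log2(CPM + 2) scale.

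**Figure D2:**
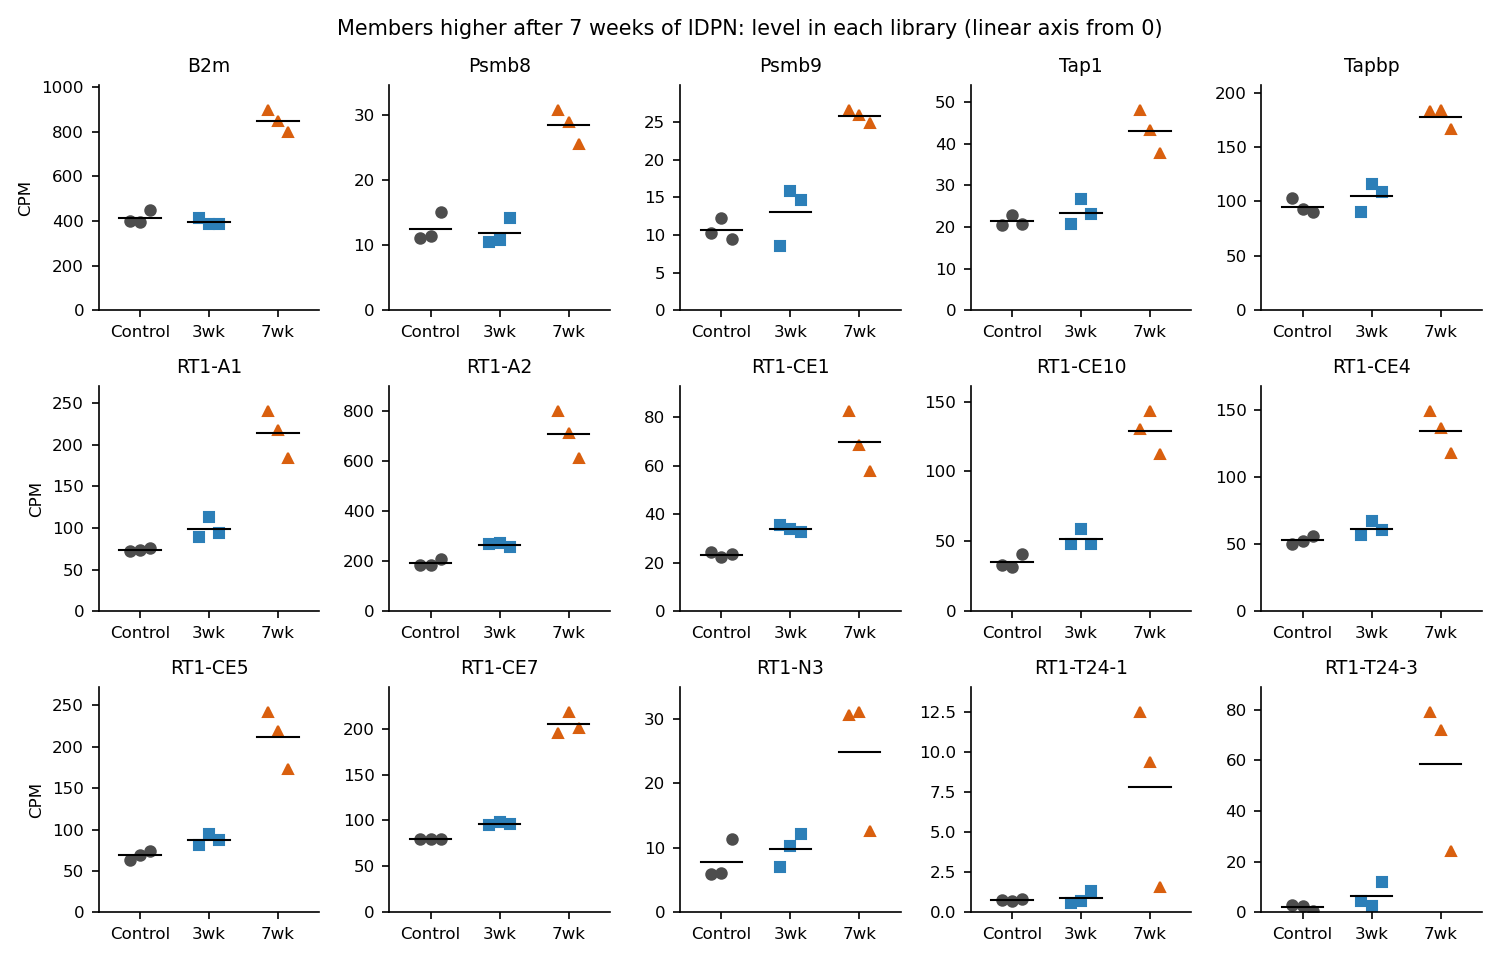
Level in CPM of the 15 members called higher in IDPN-7wk, with a point for each library and a line at each group mean, on linear axes from 0. In 12 panels the 3 IDPN-7wk triangles sit far above the other 6 libraries, and in RT1-N3, RT1-T24-1 and RT1-T24-3 the third IDPN-7wk library lies well below the first and second.

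B2m, Tap1 and Tapbp, the light chain and parts of the loading machinery, also rose at 7 weeks. To show the regulatory letters beside these members, the promoter windows of B2m (chr3:129549080-129549379, plus strand), Tap1 (chr20:4668494-4668793, minus strand), Tapbp (chr20:4967828-4968127, minus strand), RT1-A2 (chr20:4872621-4872920, plus strand) and RT1-Da (chr20:4515165-4515464, plus strand) are printed 5' to 3' from RefSeq on GRCr8, each with 250 bases before and 50 after the start. Capitals mark matches to the interferon-stimulated response element (ISRE, GAAA and GAAA parted by 2 bases), the gamma-activated site (TTCNNNGAA), the kappa B site (GGGA and TTTCC parted by 1 base), the X box (GCAACNG) and the Y box (ATTGG), on either strand. B2m, Tap1 and Tapbp are the called members outside RT1 with both an ISRE and a kappa B match, RT1-A2 is the called heavy chain with the smallest p, and RT1-Da is a class II chain that was not called.
B2m: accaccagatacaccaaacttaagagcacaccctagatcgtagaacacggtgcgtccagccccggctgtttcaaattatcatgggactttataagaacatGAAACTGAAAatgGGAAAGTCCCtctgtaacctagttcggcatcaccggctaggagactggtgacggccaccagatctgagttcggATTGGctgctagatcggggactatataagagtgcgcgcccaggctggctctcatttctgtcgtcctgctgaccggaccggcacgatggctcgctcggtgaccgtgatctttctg
Tap1: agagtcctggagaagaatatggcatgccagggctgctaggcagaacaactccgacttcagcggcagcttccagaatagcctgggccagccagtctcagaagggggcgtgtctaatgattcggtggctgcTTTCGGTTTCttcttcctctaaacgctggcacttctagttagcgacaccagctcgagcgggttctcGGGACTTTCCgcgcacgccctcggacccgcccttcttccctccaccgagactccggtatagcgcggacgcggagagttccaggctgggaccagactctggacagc
Tapbp: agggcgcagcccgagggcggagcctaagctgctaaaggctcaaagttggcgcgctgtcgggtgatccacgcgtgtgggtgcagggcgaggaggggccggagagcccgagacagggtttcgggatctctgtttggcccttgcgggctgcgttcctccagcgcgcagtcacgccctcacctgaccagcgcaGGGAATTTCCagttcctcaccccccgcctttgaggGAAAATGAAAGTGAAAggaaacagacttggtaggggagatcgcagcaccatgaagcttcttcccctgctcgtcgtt
RT1-A2: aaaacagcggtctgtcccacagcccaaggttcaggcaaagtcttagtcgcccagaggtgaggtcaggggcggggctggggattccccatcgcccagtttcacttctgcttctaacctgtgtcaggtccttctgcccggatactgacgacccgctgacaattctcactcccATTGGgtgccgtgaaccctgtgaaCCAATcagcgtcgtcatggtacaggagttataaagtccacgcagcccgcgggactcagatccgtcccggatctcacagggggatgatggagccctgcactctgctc
RT1-Da: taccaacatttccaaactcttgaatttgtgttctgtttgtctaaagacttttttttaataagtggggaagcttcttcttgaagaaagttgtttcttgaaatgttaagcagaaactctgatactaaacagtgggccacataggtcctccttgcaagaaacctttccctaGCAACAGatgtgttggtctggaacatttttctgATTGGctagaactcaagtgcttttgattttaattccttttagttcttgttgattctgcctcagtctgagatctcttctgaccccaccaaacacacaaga
Overlapping capitals in Tapbp hold 2 ISRE matches that share 4 bases.

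Of the 42 members, 35 had a promoter window. An ISRE match was found in 7 of the 11 windows of members outside RT1 (B2m, Psmb8, Psmb10, Psme2, Tap1, Tap2 and Tapbp), in 3 of 17 class I windows (RT1-N3, RT1-S2 and RT1-S3) and in 0 of 7 class II windows, against 3.92% of 33469 promoters. A kappa B match was found in B2m, Tap1 and Tapbp and in no RT1 window, against 0.362% of all promoters. The class II windows of RT1-Ba, RT1-Da, RT1-Db1 and RT1-DOb held both an X and a Y box match, as did 4.37% of all promoters. A Y box match alone, as in RT1-A2, was common (37.5% of all promoters, an X box match 12.2% and a gamma-activated site match 8.87%). The search took these exact letters only, so a window without a match can still hold a variant of the same element. That holds for RT1-A2 and the other RT1 windows too. These matches describe letters in the windows and were not tied to binding.

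B2m, the light chain shared by class I molecules, was at 400, 395 and 447 CPM in Control, at 415, 386 and 387 CPM in the IDPN-3wk libraries and at 898, 846 and 796 CPM in IDPN-7wk. The first 2 groups overlapped and the IDPN-7wk libraries lay far above both. Its log2 fold change was 1.03 ± 0.08 at 7 weeks (adjusted p = 0.000143) and -0.06 ± 0.08 at 3 weeks.

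Tap1, 1 of the chains of the peptide transporter, was at 20.5, 22.8 and 20.8 CPM in Control, at 20.7, 26.6 and 23.0 CPM in the IDPN-3wk libraries and at 48.2, 43.4 and 37.8 CPM in IDPN-7wk (log2 fold change at 7 weeks 1.01 ± 0.16, adjusted p = 0.00444). Tapbp, which encodes tapasin, the bridge between transporter and heavy chain, was at 103, 92.8 and 90.1 CPM, then at 90.5, 116 and 109 CPM and at 183, 184 and 166 CPM (0.90 ± 0.11, adjusted p = 0.0014). In both genes only the IDPN-7wk libraries stood apart. Tap2, the other transporter chain, scattered widely, with 11.2, 9.27 and 0.281 CPM in Control, 2.34, 10.1 and 13.99 CPM in the IDPN-3wk libraries and 18.7, 18.3 and 12.6 CPM in IDPN-7wk (1.26 ± 0.92, adjusted p = 0.533). Its lowest values were in Control 3 and IDPN-3wk 1, libraries with fewer detected genes. Tapbpl, a tapasin-related peptide editor, was at 12.7, 11.0 and 7.82 CPM in Control, 1.44, 4.01 and 8.21 CPM in the IDPN-3wk libraries and 12.5, 10.2 and 10.9 CPM in IDPN-7wk and was not called at either time (adjusted p = 0.276 and 0.959). Erap1, which trims peptides in the endoplasmic reticulum, ranged from 55.2 to 83.4 CPM over all libraries, with overlapping groups and a log2 fold change of 0.30 ± 0.14 at 7 weeks (adjusted p = 0.289).

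Of the 3 immunoproteasome subunits, 2 rose. Psmb8 was at 11.1, 11.5 and 15.1 CPM in Control, at 10.4, 10.9 and 14.2 CPM in the IDPN-3wk libraries and at 30.9, 29.0 and 25.6 CPM in IDPN-7wk (log2 fold change at 7 weeks 1.18 ± 0.20, adjusted p = 0.00754). Psmb9 was at 10.3, 12.3 and 9.51 CPM, then at 8.58, 15.8 and 14.6 CPM and at 26.7, 25.9 and 24.8 CPM (1.27 ± 0.24, adjusted p = 0.0126). Control and IDPN-3wk overlapped in both, and the IDPN-7wk libraries were above all others. The call of Psmb9 was lost without Control 1 (adjusted p = 0.0571) or without IDPN-7wk 1 (adjusted p = 0.0533). Psmb10, the third inducible catalytic subunit, ranged from 18.0 to 26.0 CPM with overlapping groups (0.25 ± 0.18 at 7 weeks, adjusted p = 0.526).

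The PA28 proteasome activator genes were not called. Psme1 was at 170, 157 and 156 CPM in Control, at 224, 208 and 177 CPM in the IDPN-3wk libraries and at 247, 236 and 210 CPM in IDPN-7wk. Every treated library lay above every Control library, and the log2 fold change of 0.52 ± 0.11 at 7 weeks had an adjusted p of 0.0184 but was below the fold threshold, which it passed without IDPN-7wk 3. Psme2 ranged from 47.1 to 56.3 CPM in Control and from 64.0 to 67.2 CPM in IDPN-7wk (0.34 ± 0.12, adjusted p = 0.167). Of 18 genes of the constitutive proteasome and its other regulators, 0 were called by edgeR or DESeq2 in any comparison, with 4 at an unadjusted p below 0.05 at 3 weeks, 6 at 7 weeks and 2 between the treated groups. They had median log2 fold changes of 0.16 at 3 weeks and 0.17 at 7 weeks beside -0.000467 and 0.0097 over all genes tested.

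The transactivators were low. Nlrc5 was at 3.05, 4.04 and 2.19 CPM in Control, at 0, 0.0337 and 2.52 CPM in the IDPN-3wk libraries and at 12.2, 7.94 and 7.52 CPM in IDPN-7wk. The IDPN-7wk libraries lay above all others, but the log2 fold change of 1.57 ± 1.20 at 7 weeks was not called (adjusted p = 0.551). It was called at 7 weeks when only the libraries of Control and IDPN-7wk entered the fit, and called lower at 3 weeks without IDPN-3wk 3. Ciita was at or below 0.509 CPM in every library, with 4 of the 9 libraries at 0, and no difference was detectable at this depth.

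Several other class I genes spread widely within IDPN-7wk. The RT1-T24, RT1-N and RT1-S symbols name class I genes and gene copies outside the RT1-A and RT1-CE sets. RT1-T24-3 was at 2.86, 2.63 and 0.535 CPM in Control, at 4.41, 2.66 and 11.9 CPM in the IDPN-3wk libraries and at 79.3, 71.9 and 24.2 CPM in IDPN-7wk (log2 fold change at 7 weeks 4.86 ± 0.77, adjusted p = 0.00504). RT1-T24-1 was at 0.782, 0.689 and 0.844 CPM, then at 0.572, 0.741 and 1.35 CPM and at 12.5, 9.40 and 1.60 CPM (3.34 ± 0.73, adjusted p = 0.0244). RT1-N3 was at 5.91, 6.17 and 11.4 CPM, then at 7.00, 10.3 and 12.1 CPM and at 30.6, 31.1 and 12.6 CPM (1.67 ± 0.40, adjusted p = 0.0361). In all 3 genes IDPN-7wk 3 was the lowest of its group, and for RT1-N3 and RT1-T24-1 it lay only just above the highest library of the other groups. The call of RT1-N3 was lost without Control 1, Control 2, IDPN-7wk 1 or IDPN-7wk 2 (adjusted p 0.131 to 0.145), and that of RT1-T24-1 without any 1 Control library or without IDPN-7wk 1 or IDPN-7wk 2 (adjusted p 0.072 to 0.140). Both calls were also lost with library set (fewer or more genes detected) as a covariate (adjusted p = 0.0615 for RT1-N3 and 0.0591 for RT1-T24-1).

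RT1-N2 showed the same libraries in an extreme form. It had 306 counts in IDPN-3wk 3, 1445 in IDPN-7wk 1 and 1515 in IDPN-7wk 2, and 0 in the other 6 libraries, which allows up to 0.101 CPM there. It passed the filter through these 3 libraries alone and was not called by edgeR at either time (adjusted p = 0.323 and 0.143), while DESeq2 called it higher at both. RT1-S3 and RT1-T24-4 stood the other way round in IDPN-7wk. RT1-S3 was at 510, 484 and 548 CPM in Control, at 612, 539 and 411 CPM in the IDPN-3wk libraries and at 692, 602 and 856 CPM in IDPN-7wk (0.48 ± 0.16, adjusted p = 0.119). RT1-T24-4 was at 91.4, 94.0 and 88.2 CPM, then at 127, 99.9 and 72.9 CPM and at 155, 131 and 275 CPM (1.03 ± 0.27, adjusted p = 0.0508), and it was called by DESeq2, with no filter on low counts, with at least 10 counts in every library, with only the libraries of Control and IDPN-7wk, and without IDPN-3wk 1, IDPN-3wk 3 or IDPN-7wk 2. In both genes IDPN-7wk 3 was the highest library and IDPN-3wk 3 the lowest, the reverse of RT1-N2 within each treated group. The split of reads between near-identical RT1 copies was estimated by RSEM on one reference genome, so these differences between symbols are uncertain. Without the RT1-S3, RT1-N and RT1-T24 symbols, a choice made after the data were seen, 12 members were still called at 7 weeks.

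**Figure D3:**
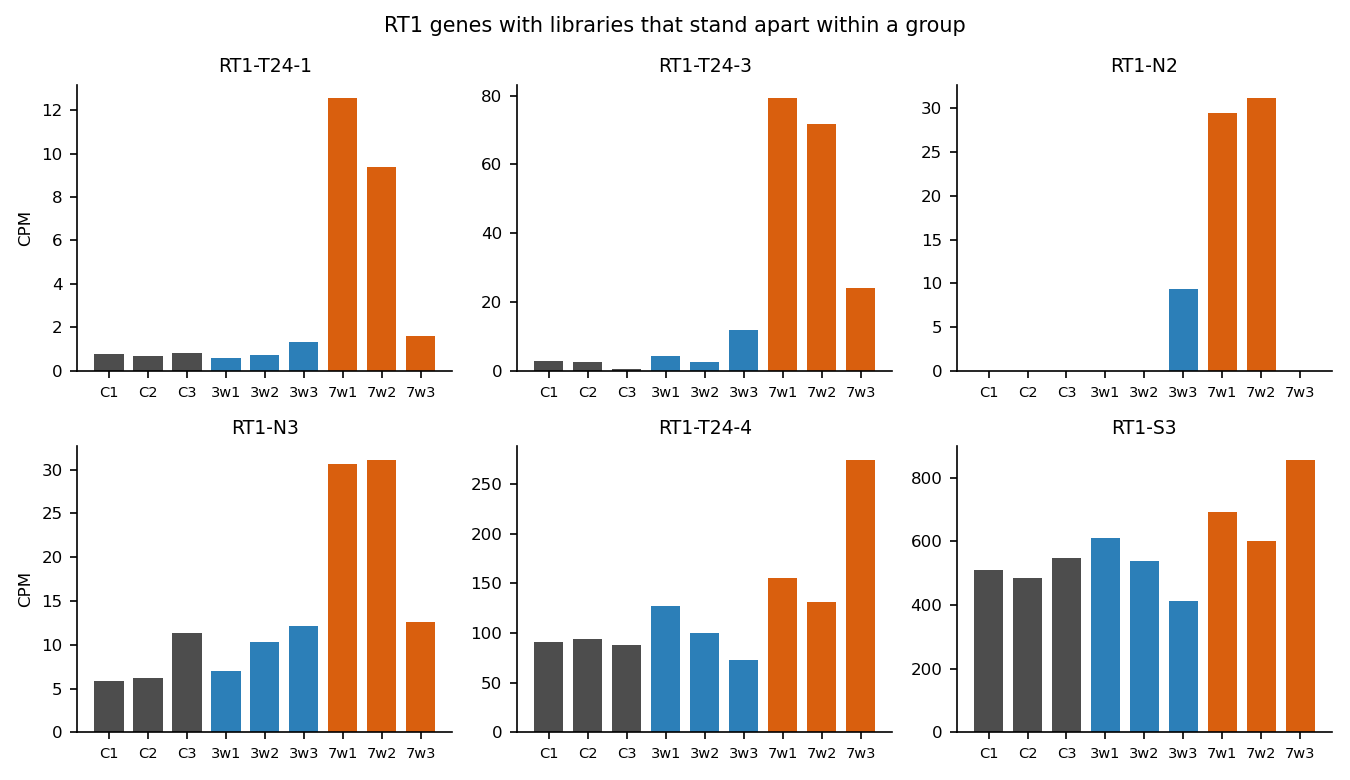
Level in CPM of 6 RT1 class I genes in each library, from Control 1 to 3 (C1 to C3) through IDPN-3wk 1 to 3 (3w1 to 3w3) to IDPN-7wk 1 to 3 (7w1 to 7w3). RT1-T24-1, RT1-T24-3, RT1-N2 and RT1-N3 are highest in the first and second IDPN-7wk libraries, while RT1-T24-4 and RT1-S3 are highest in the third.

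The RT1-M genes, a distant class I group, were not called. RT1-M3-1 ranged from 36.3 to 50.6 CPM in Control, from 25.3 to 46.6 CPM in the IDPN-3wk libraries and from 43.6 to 56.6 CPM in IDPN-7wk. RT1-M6-1, RT1-M6-2 and RT1-S2 stayed at or below 1.97 CPM in every library, and RT1-M2 and RT1-M4 were too low to test.

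Summed over the 20 class I genes, a value that does not depend on how reads were divided among them, the level was 1164, 1141 and 1263 CPM in Control, 1456, 1422 and 1241 CPM in the IDPN-3wk libraries and 2900, 2654 and 2677 CPM in IDPN-7wk. Control and IDPN-3wk overlapped, and every IDPN-7wk library lay above both. The mean was 1189 ± 64.7 CPM (SD, n = 3) in Control, 1373 ± 115 CPM in the IDPN-3wk libraries and 2744 ± 136 CPM in IDPN-7wk, a log2 difference from Control of 0.21 and 1.21, and of 0.11 and 1.25 within the libraries with more detected genes. The shares of this sum taken by RT1-S3 and RT1-A2, chosen after the values were seen as the most abundant genes, did not overlap between groups, while those of several other class I genes did (RT1-A1, RT1-CE4, RT1-CE7 and RT1-N3 among them). RT1-S3 gave 42.4 to 43.8% of class I counts in Control, 33.2 to 42.0% in IDPN-3wk and 22.7 to 32.0% in IDPN-7wk, while RT1-A2 gave 16.1 to 16.7% in Control, 18.6 to 20.6% in IDPN-3wk and 22.9 to 27.7% in IDPN-7wk. The 8 RT1-A and RT1-CE genes together were at 511 to 561 CPM, 674 to 738 CPM and 1460 to 1845 CPM in the 3 groups, without overlap.

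Class II transcripts were variable within groups. Their summed level over 8 genes was 34.7, 16.8 and 22.6 CPM in Control, 5.26, 28.9 and 19.4 CPM in the IDPN-3wk libraries and 29.3, 39.0 and 29.6 CPM in IDPN-7wk. Control overlapped with both treated groups, and the log2 difference from Control was -0.72 at 3 weeks and 0.45 at 7 weeks, with a pooled SD of 0.98 and 0.41. The 3-week value was 0.0036 without IDPN-3wk 1, whose class II sum was the lowest, -1.22 without IDPN-3wk 2 and -0.44 without Control 1. By mean, RT1-DMa was the largest part of the class II sum, at 12.0, 12.9 and 16.7 CPM in Control, IDPN-3wk and IDPN-7wk. RT1-Ba, RT1-Bb, RT1-Da and RT1-Db1 together had means of 8.61, 2.69 and 8.21 CPM. The median log2 fold change over the members tested was -1.35 at 3 weeks and 0.45 at 7 weeks for class II, against 0.29 and 1.54 for class I and 0.09 and 0.96 for the members outside RT1. RT1-N2 was counted in the class I median and lies above it wherever its fold against 0 counts is set.

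**Figure D4:**
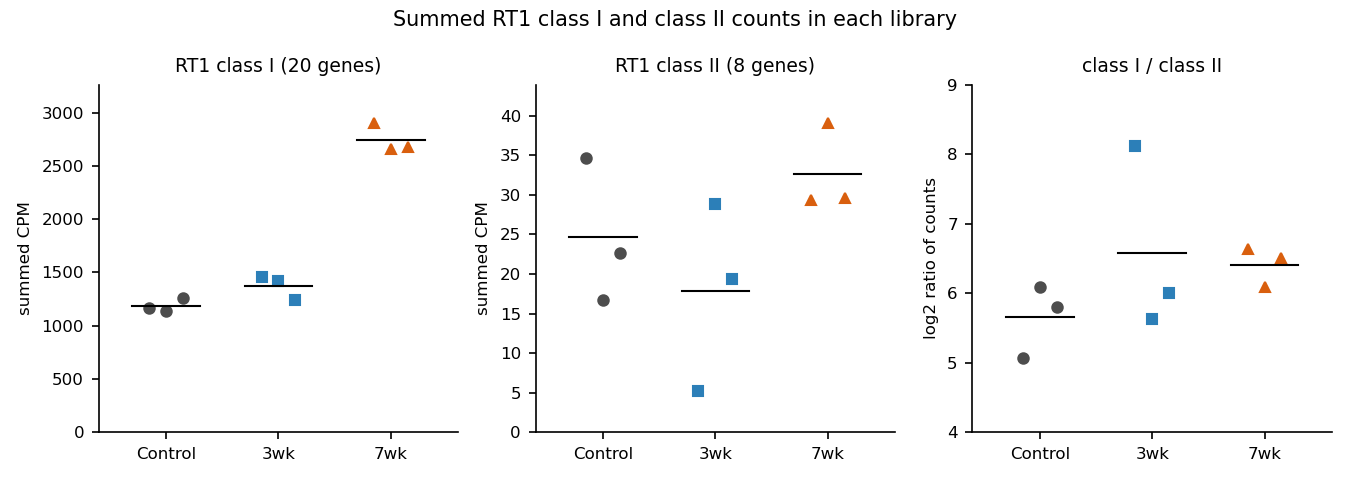
Summed CPM of the 20 RT1 class I genes (left) and the 8 RT1 class II genes (middle), with axes from 0, and the log2 ratio of their counts (right), with a point for each library and a line at each group mean. Class I is separated at 7 weeks (2654 to 2900 CPM against 1141 to 1456 CPM), and the class II sums and the ratios overlap between Control and both treated groups.

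The antigen-presenting chains of class II, RT1-B and RT1-D, were lowest at 3 weeks. RT1-Da, the RT1-D alpha chain, was at 2.72, 3.57 and 4.92 CPM in Control, at 0, 2.32 and 0.430 CPM in the IDPN-3wk libraries and at 4.95, 3.10 and 3.29 CPM in IDPN-7wk. RT1-Db1, an RT1-D beta chain, was at 1.89, 1.85 and 3.26 CPM, then at 1.09, 1.04 and 0.615 CPM and at 2.04, 1.42 and 2.15 CPM. For both, every IDPN-3wk library lay below every Control library, as did 10.9% of all genes tested, while IDPN-7wk overlapped with Control. RT1-Bb, the RT1-B beta chain, was at 1.62, 1.60 and 1.04 CPM, then at 0, 0.438 and 0.184 CPM and at 1.28, 0.617 and 1.19 CPM. RT1-Ba, the RT1-B alpha chain, was at 1.27, 0.783 and 1.29 CPM, then at 0, 1.95 and 0 CPM and at 2.44, 0.699 and 1.44 CPM, so the groups overlapped. None of the 4 was called at 3 weeks (log2 fold changes -2.77 to -0.78, adjusted p 0.279 to 0.860) or at 7 weeks (-0.46 to 0.45, adjusted p 0.835 to 0.998), and RT1-Ba was called lower at 3 weeks once IDPN-3wk 2 was left out. Summed, a choice made after their values were seen, they were at 7.50, 7.80 and 10.5 CPM in Control, 1.09, 5.76 and 1.23 CPM in the IDPN-3wk libraries and 10.7, 5.84 and 8.08 CPM in IDPN-7wk.

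Cd74, the invariant chain that guides class II molecules to endosomes, stood in the same order. It was at 16.7, 19.3 and 31.9 CPM in Control, at 5.64, 10.3 and 5.23 CPM in the IDPN-3wk libraries and at 24.8, 14.4 and 11.5 CPM in IDPN-7wk. All IDPN-3wk libraries were below all others, with a log2 fold change of -1.68 ± 0.39 against Control that missed the threshold (adjusted p = 0.0641). It was called lower at 3 weeks by DESeq2, without the filter on low counts, with at least 10 counts required in every library, and with library set (fewer or more genes detected) as a covariate. The 3-week difference was -1.80 on the log2(CPM + 2) scale among the libraries with fewer detected genes and -1.47 among the others. At 7 weeks its log2 fold change was -0.42 ± 0.38 (adjusted p = 0.630).

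Of the RT1-DM and RT1-DO genes, whose products edit the peptides on class II, RT1-DMa and RT1-DOa did not share this order. RT1-DMa was at 18.1, 7.58 and 10.3 CPM in Control, at 1.14, 22.4 and 15.1 CPM in the IDPN-3wk libraries and at 13.7, 21.1 and 15.3 CPM in IDPN-7wk. RT1-DMb was at 8.93, 1.19 and 1.80 CPM, then at 1.499, 0 and 2.31 CPM and at 4.14, 11.4 and 5.44 CPM. Its mean was lowest at 3 weeks (1.27 CPM, against 3.97 CPM in Control and 7.00 CPM in IDPN-7wk). Its log2 fold change there was -1.64 ± 1.16 (adjusted p = 0.537). Every IDPN-7wk library of RT1-DMb lay above every IDPN-3wk library, as did those of 12.1% of all genes tested. Both RT1-DMa and RT1-DMb overlapped between Control and each treated group. RT1-DOa was at 0.027, 0.188 and 0 CPM in Control, at 1.53, 0.707 and 0.799 CPM in the IDPN-3wk libraries and at 0.550, 0.637 and 0.760 CPM in IDPN-7wk. Every treated library was above every Control library, but the log2 fold changes of 3.79 ± 1.22 and 3.15 ± 1.20 were not called by edgeR (adjusted p = 0.168 and 0.180), while DESeq2 called it higher at both times. The Control values 0.027 and 0 CPM lay below the level of 3 counts. RT1-DOa passed the filter on low counts through the treated libraries alone, so its gap above Control was not read as support.

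All 13 macrophage markers in the table passed the filter, their summed level was 150, 91.8 and 146 CPM in Control, 66.1, 168 and 66.8 CPM in the IDPN-3wk libraries and 347, 283 and 272 CPM in IDPN-7wk, and 1 of them, C1qb, was called higher at 7 weeks by edgeR (log2 fold change 1.70 ± 0.31, adjusted p = 0.00958). At an unadjusted p below 0.05, 8 of the 13 were higher at 7 weeks than in Control and 11 higher than in IDPN-3wk, with 0 lower, and DESeq2 called 5 (Tyrobp, C1qb, C1qc, Ptprc and Aif1) and 6 of them. At 3 weeks 1 was lower at an unadjusted p below 0.05 and DESeq2 called 0. Within IDPN-3wk, the library with the highest macrophage sum, IDPN-3wk 2, also had the highest Cd74 and the highest sum of RT1-B and RT1-D chains. The same held for IDPN-7wk 1 within IDPN-7wk. In Control, the library with the highest macrophage sum, Control 1 (150 CPM), had the lowest Cd74 and the lowest sum of these chains. Control 3, close to it at 146 CPM, had the highest Cd74 (31.9 CPM) and the highest sum of these chains (10.5 CPM). At 7 weeks the macrophage sum lay above Control in every library, as the class I sum did, whereas Cd74 and the RT1-B and RT1-D chains overlapped with Control. The part of macrophages in these results was not tested.

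**Figure D5:**
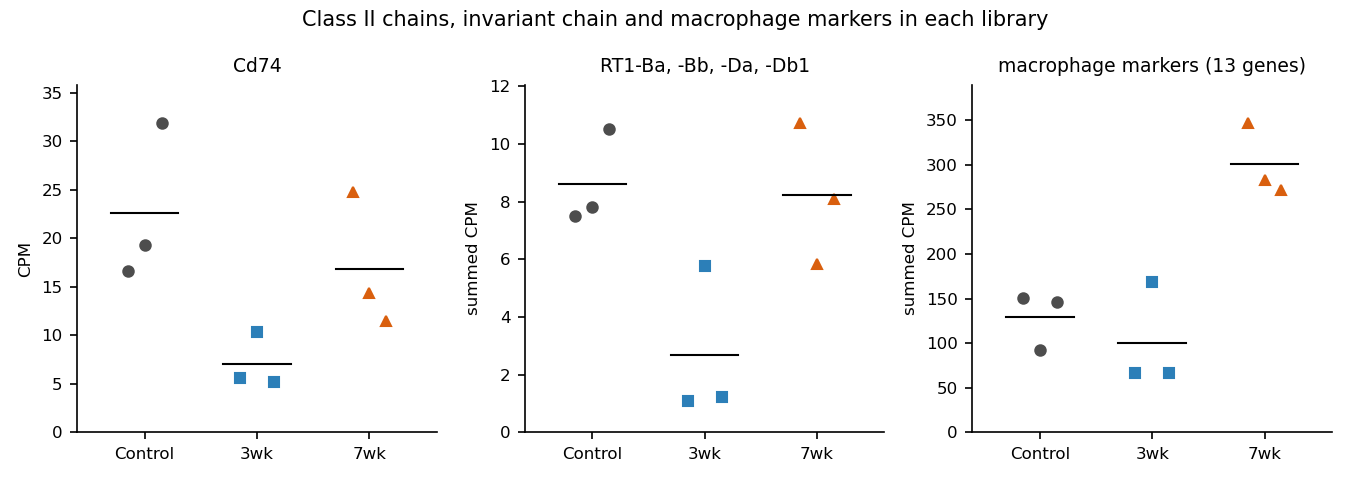
Level of Cd74 (left), summed level of RT1-Ba, RT1-Bb, RT1-Da and RT1-Db1 (middle) and summed level of 13 macrophage markers (right) in CPM, with a point for each library and a line at each group mean. Cd74 and the class II chains are lowest at 3 weeks and overlap with Control at 7 weeks, while the macrophage sum is 272 to 347 CPM at 7 weeks against 91.8 to 150 CPM in Control.

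Markers of other cell types were checked in the same way. Of the dendritic cell markers, 4 were tested and 0 called by edgeR or DESeq2, with 0 at an unadjusted p below 0.05 in any comparison, Xcr1 was at 0, and the summed level was 6.58 to 10.0 CPM in Control, 6.65 to 10.3 CPM in the IDPN-3wk libraries and 6.36 to 12.1 CPM in IDPN-7wk. The B cell markers Ms4a1 and Pax5 were at 0 in every library, and the B cell sum was at most 0.675 CPM. The T and NK cell sum was 10.7 to 11.2 CPM in Control, 6.62 to 9.38 CPM in the IDPN-3wk libraries and 15.4 to 27.1 CPM in IDPN-7wk, with 3 markers tested, 0 called by edgeR and Klrb1 at 0. Of these 3, Cd4 and Cd8a had an unadjusted p below 0.05 between the treated groups, both higher in IDPN-7wk, and DESeq2 called Cd4 there. Cd4 held most of the sum, at 6.89 to 7.47 CPM in Control and 9.24 to 22.0 CPM in IDPN-7wk. Cd3g was at 3.01 to 3.53 CPM and 3.73 to 5.47 CPM in these groups. Cd3d and Cd3e stayed at or below 0.492 CPM in every library, so the sum mainly followed Cd4. Supporting cell markers summed to 10144 to 10422 CPM, 4996 to 7255 CPM and 3218 to 5596 CPM in the 3 groups, with 1 of 6 called lower at 3 weeks and 2 at 7 weeks. Endothelial markers summed to 187 to 196 CPM, 195 to 254 CPM and 206 to 293 CPM, with Cdh5 called higher at 7 weeks (log2 change 0.67 ± 0.17, adjusted p = 0.0494), and Schwann cell markers to 8506 to 10807 CPM, 6883 to 9129 CPM and 2890 to 6159 CPM, with 2 of 5 called lower at 7 weeks. Their part in the member values was not tested either.

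The 2 exposure groups were also compared directly. Of 39 members, 11 were higher and 0 lower in IDPN-7wk than in IDPN-3wk, where 0.348% of all genes tested were called higher and 0.135% lower. They were RT1-A1, RT1-A2, RT1-CE1, RT1-CE4, RT1-CE5, RT1-CE7, RT1-CE10, B2m, Psmb8, Tap1 and Tapbp, with log2 fold changes from 0.76 (Tapbp) to 1.41 (RT1-A2). DESeq2 called 17 higher and 0 lower, and 21 were higher and 0 lower at an unadjusted p below 0.05. Their IDPN-7wk libraries all lay above their IDPN-3wk libraries, as did those of 26 of 39 members and 12.1% of all genes tested. The reverse held for 0 of 39 members and 8.92% of all genes tested. No class II gene was called by edgeR or DESeq2, with 0 at an unadjusted p below 0.05, although the median log2 fold change of class II was 1.24 and that of class I 1.19. For RT1-Bb, RT1-Da and RT1-Db1, 3 of the 7 class II genes tested, the IDPN-3wk libraries lay below both other groups, as did 5 of 39 members and 2.80% of all genes tested, whereas for RT1-A and RT1-CE genes the IDPN-7wk libraries lay above both. The calls of RT1-CE1, Psmb8, Tap1 and Tapbp were lost without IDPN-7wk 1 or without IDPN-7wk 2, leaving 7 members called. Tapbp was also lost without IDPN-7wk 3. Psmb8 was also lost without Control 1, Control 2, IDPN-3wk 1, IDPN-3wk 2 or IDPN-7wk 3, and Tap1 without any 1 Control library, IDPN-3wk 1 or IDPN-7wk 3. Without IDPN-3wk 3, 15 were called. This comparison shares the IDPN-3wk and IDPN-7wk libraries with those against Control. Rats were killed at the end of exposure and the labels do not split Control by time point. Weeks of exposure and time of kill therefore cannot be told apart here.

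The log2 ratio of summed class I to class II counts was 5.07, 6.09 and 5.80 in Control, 8.11, 5.62 and 6.00 in IDPN-3wk and 6.63, 6.09 and 6.50 in IDPN-7wk. The 3 groups overlapped, and the highest ratio came from IDPN-3wk 1, whose class II sum was 5.26 CPM. RT1-DMa, by mean the largest part of the class II sum, was at 1.14 CPM in that library. The mean ratio differed from Control by 0.92 at 3 weeks and 0.75 at 7 weeks, with a pooled SD of 1.02 and 0.42.

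Among the other genes of the pathway, few were called. Of 10 endoplasmic reticulum genes that fold or load class I, Hspa5, a general chaperone, was lower at 7 weeks (log2 change -0.68 ± 0.11, adjusted p = 0.00514), its 3-week change of -0.58 ± 0.11 (adjusted p = 0.0277) was just short of the fold threshold, and the other 9 were not called by edgeR. Of 11 tested genes of endosomal class II processing, Ifi30, a thiol reductase that unfolds antigens, was called. It was at 60.0, 52.6 and 51.3 CPM in Control, at 96.2, 85.7 and 90.6 CPM in the IDPN-3wk libraries and at 99.6, 97.6 and 85.0 CPM in IDPN-7wk, so it rose at 3 weeks (0.73 ± 0.11, adjusted p = 0.0117) and stood near the same level at 7 weeks (0.78 ± 0.11, adjusted p = 0.00282). Ctss, the cathepsin that trims the invariant chain, was at 5.56, 4.20 and 5.94 CPM in Control, 0.736, 4.58 and 1.75 CPM in the IDPN-3wk libraries and 11.5, 9.13 and 8.81 CPM in IDPN-7wk, and was not called by edgeR against Control (adjusted p = 0.340 and 0.412) or between the treated groups (2.06 ± 0.56, adjusted p = 0.159), where DESeq2 called it higher at 7 weeks. None of 6 MHC-like and 5 costimulation genes tested was called by edgeR in any comparison. DESeq2 called the MHC-like genes Cd1d1, which presents lipids, and Procr, the endothelial protein C receptor, higher at 7 weeks. It also called the costimulatory receptor Cd40 higher at 7 weeks and Cd274, which encodes PD-L1, higher at 3 weeks. At an unadjusted p below 0.05, edgeR had Cd1d1, Procr and Cd40 at 7 weeks, Cd274 and Cd40 at 3 weeks and Cd86 between the treated groups, all of them higher in the later or treated group.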

How the data were processed

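Per the labels, SMARTseq2 libraries were made from total RNA of 9 rats, 1 library a rat. The authors mapped the reads with STAR (2.5.3a in the submitters' processing notes) to Rnor6.0 and deposited estimated counts per gene from RSEM (1.3.0 in the same notes), given as whole numbers. RSEM divides reads that fit several genes, which bears on the near-identical RT1 copies, and Long-Evans is an outbred stock read against one reference. Strand was not stated in the sources used here. Depth was the total count of each library, and a count of 3 set the limit of detection.

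Counts were filtered with edgeR's filterByExpr and scaled with TMM (edgeR 4.0.16 in R 4.3.3), and 1 quasi-likelihood model over the 3 groups was tested on 15517 genes with robust dispersions and Benjamini-Hochberg adjustment. The test was checked on simulated counts. Those held no split between libraries and no reads shared between RT1 copies, so the check does not cover these features. CPM used TMM-scaled library sizes. Sums over members carry no test. The members and lists were chosen with earlier results of these data known. Named with values were the genes outside RT1, each RT1 gene called in a comparison and each class II gene tested, and any other gene singled out was picked with its values in view. One of the gene lists is not reported here. Promoters were searched with Python 3.11.15 code. Alternatives were DESeq2 1.42.0, RLE factors, library totals, other filters and fold thresholds, fits on 2 groups, a covariate for the libraries with fewer detected genes and each library left out. Values within sets of libraries used log2(CPM + 2).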

Additional observations from a re-analysis of the deposited data

Results flagged for a closer look

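The log2 fold change against Control differed between 3 and 7 weeks of IDPN for 11 members, tested directly between IDPN-7wk and IDPN-3wk in edgeR's quasi-likelihood test, and all 11 were higher at 7 weeks. The differences among the heavy chains were 1.41 ± 0.11 (SE) for RT1-A2 (adjusted p = 0.000396), 1.32 ± 0.15 for RT1-CE10 (0.00374), 1.27 ± 0.13 for RT1-CE5 (0.00278), 1.13 ± 0.12 for RT1-CE4 (0.00278), 1.11 ± 0.13 for RT1-A1 (0.00397), 1.09 ± 0.08 for RT1-CE7 (0.000396) and 1.03 ± 0.15 for RT1-CE1 (0.0125). Outside RT1 they were 1.27 ± 0.20 for Psmb8 (0.0281), 1.10 ± 0.08 for B2m (0.000396), 0.88 ± 0.16 for Tap1 (0.0445) and 0.76 ± 0.11 for Tapbp (0.0170). Each of them was higher in 3 of 3 IDPN-7wk libraries than in every IDPN-3wk library. Weeks of exposure and time of kill cannot be told apart in these differences.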

How the results depend on the processing

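No paired analysis was possible because the labels give no replicate numbers, and the code in the titles is shared between groups only by 1 IDPN-3wk and 1 IDPN-7wk library. Of 15 members called at 7 weeks, 11 kept their call under all 17 alternatives (B2m, Psmb8, RT1-A1, RT1-A2, RT1-CE1, RT1-CE10, RT1-CE4, RT1-CE5, RT1-CE7, RT1-T24-3 and Tap1), as did 7 of 11 between the treated groups, and the number called at 7 weeks was 12 to 18. Of 765 values of named members, 711 kept direction and side of the threshold, 43 lost it, 8 gained it and 3 changed sign at 3 weeks, Psmb8 (0.0709 without Control 3, 0.0029 without IDPN-3wk 1, and -0.23 to 0.0709 over all libraries left out in turn) and RT1-T24-1 (-0.24 without IDPN-3wk 3, to 0.44). At 3 weeks, 3 members were called by DESeq2 and 1 (Cd74) with no filter, with at least 10 counts in every library or with the covariate. Leaving out 1 library gave 0 to 2 at 3 weeks (RT1-Ba lower without IDPN-3wk 2, Nlrc5 and RT1-M6-1 lower without IDPN-3wk 3), 12 to 16 at 7 weeks and 7 to 15 between the treated groups, where DESeq2 gave 17 and a fit on 2 groups or the covariate gave 7. The log2 difference of the class I sum at 7 weeks was 1.34 by library totals and 1.54 as a median over members, and between the treated groups 1.12, 1.19 and, in the libraries with more detected genes, 1.14. Library totals in place of TMM shift every 7-week log2 value by 0.14. Leaving out 1 library gave 0.16 to 0.28, 1.17 to 1.25 and 0.93 to 1.04 for class I, -1.22 to 0.0036, 0.21 to 0.73 and 0.45 to 1.68 for class II, and 0.16 to 1.40, 0.46 to 0.97 and -0.65 to 0.59 for their ratio, at 3 weeks, at 7 weeks and between the treated groups. The cause of these moves was not tested. Class II chains, Ciita and RT1-M6 lay near the limit of 3 counts in single libraries, so small differences there were not detectable.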
